A study of Mus musculus with 12 samples.

Results

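Transcripts of 10 genes of RNA methylation were followed in mouse dentate gyrus lacking Larp7 and in cultured progenitors derived from it. The genes were Fbl, Nop56 and Nop58 of the box C/D ribonucleoprotein, Mettl3, Mettl14, Wtap and Mettl16 of N6-methyladenosine (m6A) writing, Trmt61a and Trmt6 of tRNA 1-methyladenosine writing, and Nsun2 of 5-methylcytosine writing. They were taken by symbol from 27998 genes of the single-cell files and by Entrez identifier from 40814 genes of the neurosphere count table, and all 10 were present in both. Trmt61a was chosen for its low level in mutant progenitor cells, so its single-cell values are a description of what it was selected on. The others were chosen for their biochemical relation to Larp7, with earlier results of these data known.

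Single-cell RNA was read at postnatal day 7 (P7) from 3 libraries, 1 of wild-type dentate gyrus, 1 of Larp7 f/f;nestin-Cre (named nestin-Cre from here on) and 1 of Larp7 f/f;Emx1-Cre (named Emx1-Cre). The wild-type controls carried the same floxed Larp7 alleles, flanking exon 9, without a Cre transgene, and each library combined the gyri of several littermates. The nestin-Cre transgene, driven by a nestin promoter fragment, deletes in embryonic neural precursors and all that derives from them, while the Emx1-Cre knock-in acts in the dorsal forebrain lineage. Bulk RNA was read in 5 libraries of neurospheres started from P1 dentate gyrus, 2 wild-type and 3 from Larp7 f/f;Emx1-Cre pups (KO), after 2 days of differentiation on Matrigel.

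Larp7 binds the 3′ end of the 7SK RNA, which holds the elongation factor P-TEFb inactive, and it also brings box C/D small nucleolar RNAs to the spliceosomal U6 RNA. In a box C/D particle Fbl (fibrillarin) is the methyltransferase that adds 2′-O-methyl groups to rRNA and snRNA, while Nop56 and Nop58 are the core proteins that hold the guide RNA and the enzyme in place. Mettl16 writes m6A on U6 and on the Mat2a mRNA, Mettl3 with its partner Mettl14 and the adaptor Wtap writes m6A on mRNA, Trmt61a is the catalytic and Trmt6 the RNA-binding subunit of the enzyme that writes 1-methyladenosine in the T loop of tRNAs, and Nsun2 writes 5-methylcytosine on tRNAs and other RNAs. In dentate gyrus at this age radial glia-like cells (RGL) give rise to neuronal intermediate progenitor cells (nIPC), which divide and become neuroblasts.

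A substrate of the Trmt6 and Trmt61a enzyme is shown because the results turn on Trmt61a. It is a RefSeq gene of the initiator methionine tRNA (chr3:90475860-90475931, minus strand, GRCm38.p6), in which the capitals mark the part of the T loop that holds the methylated adenosine.
n-TMcat11: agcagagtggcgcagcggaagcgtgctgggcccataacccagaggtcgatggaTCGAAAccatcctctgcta

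In GRCm38.p6 Trmt61a lies at chr12:111678105-111683902 on the plus strand, where no other RefSeq gene overlaps it, and Trmt6 at chr2:132804207-132816054 on the minus strand. Fbl is at chr7:28168893-28179269, Nop56 at chr2:130274367-130279313 and Nop58 at chr1:59684961-59711510. Nop56 and Nop58 each hold small nucleolar RNA genes within their bounds. Mettl16 is at chr11:74770815-74826855, Mettl3 at chr14:52294841-52308741, Wtap at chr17:12966799-12992543 and Nsun2 at chr13:69612016-69635780. Mettl14 (chr3:123368295-123385990) lies 4.15 megabases from Larp7 (chr3:127536714-127553349) on the same chromosome. Nop56 overlaps Idh3b, and Mettl3 overlaps Tox4, on the opposite strand at their 3′ ends.

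The barcodes that passed the filters (more than 500 genes, under 15% mitochondrial UMIs) numbered 10997, 6685 and 6531 in the wild-type, nestin-Cre and Emx1-Cre libraries, with medians of 1782, 3644 and 3873 UMIs (unique molecular identifiers, each 1 captured RNA molecule). The wild-type library stood apart, as 32.2% of its cells fell into clusters that could not be named, against 9.11% and 6.57%. Pairs of libraries shared between 11 and 23 barcodes, at most 0.321% of the smaller library. The title and the genotype entry of the mutant libraries name opposite Cre lines, and the titles were followed, so that values given for the 2 mutant lines may have to be exchanged with each other. With 1 library per genotype there was no test, levels are CPM (UMIs of a gene scaled to the total of its class), and 95% intervals (exact Poisson for levels, exact conditional binomial for ratios) cover counting error only. In the neurospheres, totals ran from 59821311 to 62474602 counts.

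In the wild-type library Fbl, Nop56, Nop58, Mettl16 and Trmt61a had their highest level in nIPC-like cells, among 11 classes with at least 50 cells. Trmt61a was at 15.9 CPM in nIPC-like cells (12.6 to 20.0), 13.3 CPM in RGL-like cells (9.81 to 17.6) and 13.2 CPM in microglia-like cells (7.72 to 21.2). In neuroblast-like cells it was at 8.81 CPM (6.35 to 11.9), in astrocyte-like cells at 7.32 CPM (4.94 to 10.4) and in endothelial-like cells, the lowest class, at 4.58 CPM (1.68 to 9.97). The intervals of neighbouring classes overlapped throughout that order, while nIPC-like and neuroblast-like cells did not overlap each other. Fbl was at 161 CPM in nIPC-like cells (150 to 173) and 138 CPM in neuroblast-like cells (127 to 149), intervals that did not overlap, and at 69.9 CPM in OPC-like cells (oligodendrocyte precursors, 51.0 to 93.5). Nop58 had the same order at the top, with 142 CPM in nIPC-like cells (132 to 154) and 103 CPM in neuroblast-like cells (94.5 to 113), and was lowest in astrocyte-like cells at 44.9 CPM (38.6 to 51.8). Nop56 ran from 146 CPM in nIPC-like cells (136 to 158) to 52.7 CPM in astrocyte-like cells (45.9 to 60.2).

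**Figure D1:**
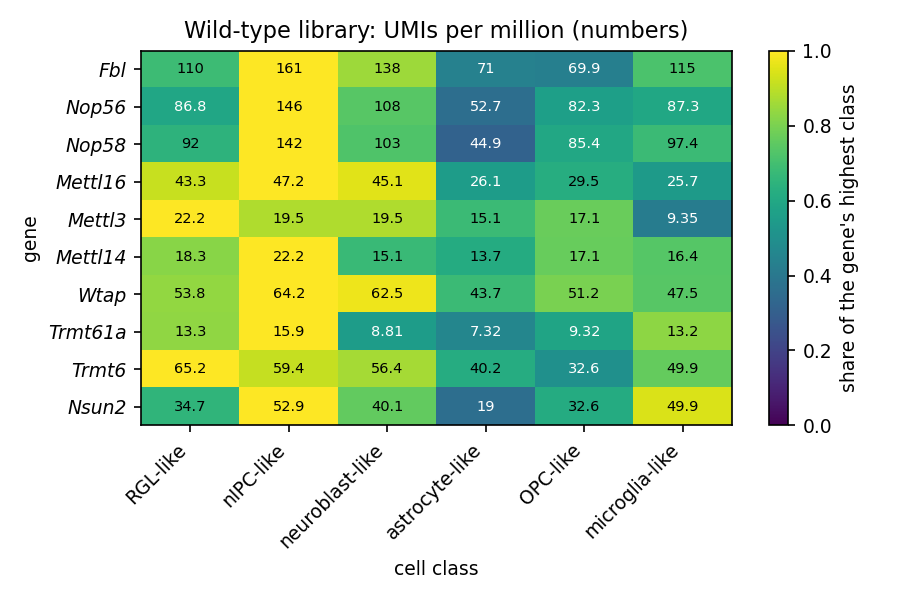
Level of each gene (rows) in 6 cell classes (columns) of the wild-type P7 library, with CPM printed in each field and the colour giving the share of the highest of the 6 classes for that gene. Fbl, Nop56 and Nop58 were highest in nIPC-like cells, at 161, 146 and 142 CPM.

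Mettl16 was at 47.2 CPM in nIPC-like cells (41.2 to 53.8), 45.1 CPM in neuroblast-like cells and 43.3 CPM in RGL-like cells, which did not differ beyond their intervals, and at 26.1 CPM in astrocyte-like cells (21.4 to 31.5). Trmt6 was highest in RGL-like cells at 65.2 CPM (57.1 to 74.0), with 59.4 CPM in nIPC-like and 56.4 CPM in neuroblast-like cells. The pair that forms the tRNA enzyme thus had its peaks in different progenitor classes, but the intervals of RGL-like and nIPC-like cells overlapped for both subunits. Mettl3 was at 22.2, 19.5 and 19.5 CPM and Mettl14 at 18.3, 22.2 and 15.1 CPM in cells that were RGL-like, nIPC-like and neuroblast-like, respectively. Wtap was at 64.2 CPM in nIPC-like cells (57.2 to 71.8) and 62.5 CPM in neuroblast-like cells (55.6 to 70.0). Its highest level, 104 CPM in erythroid-like barcodes (87.7 to 123), overlapped that of Cajal-Retzius-like cells at 103 CPM (44.5 to 203). Those erythroid-like barcodes had a median of 1141 UMIs and carried neuroblast and astrocyte markers at 55.9 and 59.0 per 10000 UMIs, and the part of this in the level was not tested. Nsun2 was at 52.9 CPM in nIPC-like cells (46.5 to 59.8) against 34.7 CPM in RGL-like cells (28.8 to 41.3).

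Larp7, the deleted gene, was at 85.6 CPM in wild-type nIPC-like cells (77.5 to 94.3), 11.6 CPM in nestin-Cre cells (8.95 to 14.8) and 15.3 CPM in Emx1-Cre cells (12.4 to 18.6). These 3′ tags lie near the end of the transcript and not in the deleted exon, so what they show is a lower transcript level. Microglia-like cells, which neither Cre line should reach, had Larp7 at 59.2, 35.8 and 38.4 CPM in the wild-type, nestin-Cre and Emx1-Cre libraries (ratios 0.605, 0.421 to 0.864, and 0.648, 0.423 to 0.976). The source of that difference was not tested.

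Trmt61a stood at 76 UMIs in 1230 wild-type nIPC-like cells, 22 UMIs in 1252 nestin-Cre cells and 30 UMIs in 1403 Emx1-Cre cells. As levels these were 15.9 CPM, 3.92 CPM (2.46 to 5.94) and 4.68 CPM (3.16 to 6.68), and neither mutant interval reached the wild-type one. The ratio to wild-type was 0.246 (0.146 to 0.400) and 0.294 (0.186 to 0.453). By the larger of the 2 log2 ratios Trmt61a was the third lowest of 9744 genes with enough UMIs, and Larp7 was the lowest. Nothing is read from these places, since Trmt61a was chosen for its low level in mutant progenitors and Larp7 is the deleted gene. Its level was below wild-type in both clusters that make up the class, one led by Neurog2 and replication genes (ratios 0.197 and 0.148) and one led by Eomes and Tac2 (0.279 and 0.406). Each of those clusters held a similar number of cells in the 3 libraries.

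Along the lineage the same gene was at 13.3, 6.35 and 8.58 CPM in RGL-like cells of the wild-type, nestin-Cre and Emx1-Cre libraries, with ratios of 0.477 (0.290 to 0.772) and 0.645 (0.421 to 0.987). Within single RGL-like clusters every interval held 1, with ratios of 0.223 to 0.620 in nestin-Cre and 0.503 to 0.825 in Emx1-Cre. The cluster led by Gdf10 and Entpd2 held 535, 769 and 729 cells, and the one led by Wnt8b 418, 258 and 332. Their wild-type levels were 9.37 and 18.2 CPM, and the part of this in the class ratios was not tested. In neuroblast-like cells Trmt61a was at 8.81, 2.18 and 4.71 CPM, with ratios of 0.247 (0.132 to 0.444) and 0.534 (0.330 to 0.860). All 6 class ratios in the lineage were below 1 with intervals that left out 1. However, the neuroblast-like ratio of Emx1-Cre turned to 1.29 and 1.47 in 2 of 7 alternatives, on 1 and 2 wild-type UMIs. In neuroblast-like cells the value rests on the cluster led by Cntn2 and Prdm8, which held 1146 wild-type, 984 nestin-Cre and 1076 Emx1-Cre cells, where the ratios were 0.0781 (0.0154 to 0.245) and 0.50 (0.286 to 0.855). The other neuroblast-like cluster, led by Gal and Sema5a, held 391, 1179 and 846 cells, and its 2, 14 and 11 UMIs of Trmt61a gave ratios of 1.68 (0.386 to 15.2) and 1.91 (0.416 to 17.7). None of the 10 leading genes of that cluster is a neuroblast marker.

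In astrocyte-like, microglia-like and OPC-like cells every interval for Trmt61a held 1. Astrocyte-like cells, where Larp7 was at 34.1, 2.34 and 7.07 CPM, had Trmt61a at 7.32, 6.62 and 4.35 CPM (ratios 0.906, 0.469 to 1.70, and 0.595, 0.303 to 1.13). Microglia-like cells had 13.2, 8.80 and 8.53 CPM (ratios 0.664 and 0.644), from 17, 14 and 8 UMIs. OPC-like cells had 9.32, 10.5 and 4.88 CPM, from 6, 11 and 5 UMIs, and their erythroid markers stood at 55.0 per 10000 UMIs in the wild-type library against 1.87 and 4.24 in the mutants. In nestin-Cre the nIPC-like interval (0.146 to 0.400) lay below that of astrocyte-like cells. It overlapped those of microglia-like cells (0.303 to 1.43) and OPC-like cells (0.382 to 3.71). In Emx1-Cre the nIPC-like interval (0.186 to 0.453) overlapped those of astrocyte-like, microglia-like and OPC-like cells. Since Trmt61a was chosen for its low level in mutant progenitors, nothing is read from this order, and the difference between classes was not tested.

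**Figure D2:**
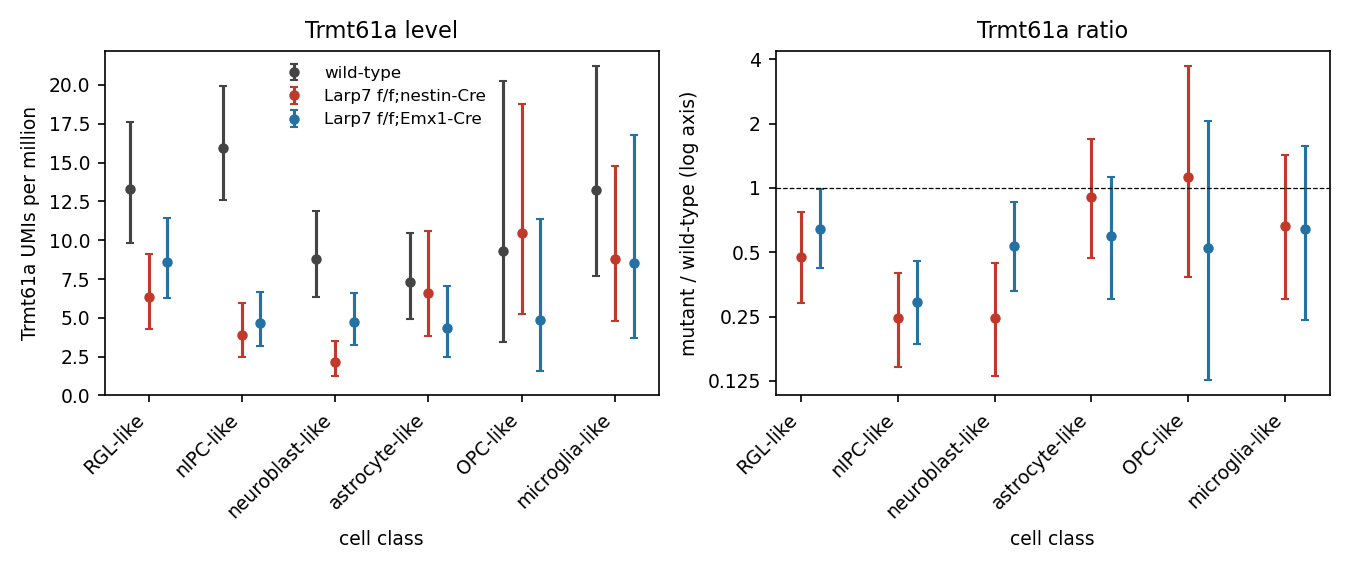
Trmt61a in 6 cell classes of the 3 P7 libraries, as CPM (left) and as the ratio of each mutant library to wild-type on a log axis (right), with 95% counting intervals as bars and a dashed line at a ratio of 1. The ratios are 0.246 and 0.294 in nIPC-like cells and 0.247 and 0.534 in neuroblast-like cells, and the intervals of the 3 classes on the right of the ratio panel hold 1.

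Trmt6, the partner subunit, was at 59.4, 56.4 and 58.4 CPM in nIPC-like cells of the 3 libraries, in the order wild-type, nestin-Cre, Emx1-Cre, with ratios of 0.949 (0.806 to 1.12) and 0.983 (0.840 to 1.15). Those intervals leave out the ratios of Trmt61a in the same cells, but Trmt61a was chosen for its low level there. Nothing is read from this contrast, and the difference between the subunits was not tested. In neuroblast-like cells Trmt6 was lower in both mutants, at 56.4, 36.7 and 43.2 CPM, with ratios of 0.650 (0.548 to 0.770) and 0.765 (0.648 to 0.904). The direction turned in 2 of 7 alternatives, with 3.46 and 1.29 when cells with over 200 genes were kept and 1.31 and 1.2 at Leiden resolution 2, where the class held 81 and 135 wild-type cells. It was below wild-type in both neuroblast-like clusters (0.724 and 0.570 in nestin-Cre, 0.778 and 0.729 in Emx1-Cre). Of the nIPC-like clusters, the one led by Neurog2 had ratios of 0.615 (0.469 to 0.805) and 0.771 (0.604 to 0.986). In the one led by Eomes both intervals held 1, at 1.23 (0.995 to 1.52) and 1.14 (0.926 to 1.41).

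Among the box C/D proteins Nop56 was the one with lower levels. In nIPC-like cells it was at 146 CPM in the wild-type library, 99.7 CPM in nestin-Cre and 124 CPM in Emx1-Cre, with ratios of 0.682 (0.609 to 0.763) and 0.845 (0.762 to 0.937). Both nIPC-like clusters had ratios under 1 in both mutants, between 0.623 and 0.833. In neuroblast-like cells the mutants parted, with 0.721 (0.640 to 0.813) in nestin-Cre and 1.04 (0.935 to 1.17) in Emx1-Cre, and the ratio between the mutants was 1.45 (1.30 to 1.61). In RGL-like cells both intervals held 1 (0.921 and 0.937), and in astrocyte-like cells the ratio was 0.710 (0.553 to 0.907) in nestin-Cre and 0.935 (0.763 to 1.14) in Emx1-Cre.

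Fbl and Nop58 stayed close to wild-type in the same cells. Fbl was at 161, 160 and 165 CPM in nIPC-like cells, with ratios of 0.990 (0.898 to 1.09) and 1.02 (0.931 to 1.12). Nop58 was at 142, 144 and 159 CPM, with ratios of 1.01 (0.914 to 1.12) and 1.12 (1.01 to 1.23). In neuroblast-like cells Nop58 had ratios of 1.12 (0.999 to 1.25) and 1.24 (1.11 to 1.38). In OPC-like cells Fbl was at 69.9, 124.9 and 95.7 CPM, with ratios of 1.79 (1.27 to 2.57) and 1.37 (0.953 to 1.99), beside the erythroid markers given above for that class.

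**Figure D3:**
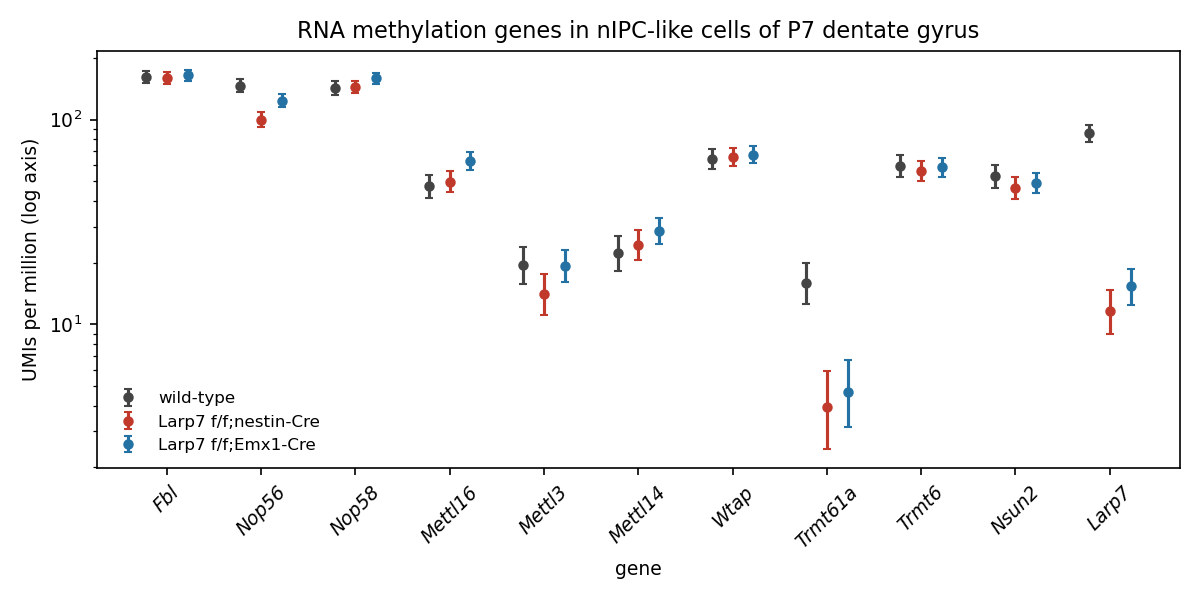
Level of the 10 genes and of Larp7 in nIPC-like cells of the 3 P7 libraries, as CPM on a log axis with exact Poisson 95% intervals. Trmt61a is at 15.9 CPM in the wild-type library and at 3.92 and 4.68 CPM in the mutants, while Fbl is between 160 and 165 CPM in all 3.

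Mettl16 was higher in the mutants in most classes. In RGL-like cells it was at 43.3, 60.7 and 67.5 CPM, with ratios of 1.40 (1.15 to 1.72) and 1.56 (1.29 to 1.90), and all 3 RGL-like clusters lay above 1 in both mutants, between 1.39 and 2.04. In nIPC-like cells it was at 47.2, 49.8 and 62.6 CPM, where the ratio of nestin-Cre held 1 (1.05, 0.881 to 1.26) and that of Emx1-Cre did not (1.33, 1.12 to 1.57). The cluster led by Neurog2 had 1.31 (0.966 to 1.78) and 1.51 (1.13 to 2.02), and the one led by Eomes 0.922 (0.734 to 1.16) and 1.24 (1.00 to 1.52). Neuroblast-like cells had 1.2 (1.01 to 1.42) and 1.37 (1.16 to 1.62), and astrocyte-like cells 1.60 (1.21 to 2.11) and 1.52 (1.18 to 1.97). Microglia-like cells had 1.30 (0.823 to 2.07) and 1.74 (1.08 to 2.84). Whether the ratio differs between classes was not tested.

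Of the m6A writers of mRNA, Mettl14 was at 22.2, 24.4 and 28.6 CPM in nIPC-like cells, with ratios of 1.10 (0.846 to 1.43) and 1.28 (1.01 to 1.65), and the ratio in Emx1-Cre was 1.5 (1.13 to 2.01) in neuroblast-like and 1.53 (1.07 to 2.20) in astrocyte-like cells. Mettl14 lies near Larp7, as given above, and the wild-type controls carried the same floxed alleles. The source of the difference in Mettl14 was not tested. Mettl3, the catalytic partner, was at 19.5, 14.1 and 19.4 CPM in nIPC-like cells, with ratios of 0.722 (0.528 to 0.985) and 0.992 (0.752 to 1.31). Wtap was at 64.2, 65.8 and 67.3 CPM there (1.02 and 1.05) and its intervals held 1 in RGL-like, nIPC-like, neuroblast-like and astrocyte-like cells of both mutants.

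Nsun2, the tRNA cytosine methyltransferase, was at 52.9, 46.2 and 48.8 CPM in nIPC-like cells, with ratios of 0.873 (0.732 to 1.04) and 0.924 (0.780 to 1.09). Of all classes in the plot of ratios, an interval for Nsun2 left out 1 only in astrocyte-like cells of Emx1-Cre (1.40, 1.03 to 1.91).

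**Figure D4:**
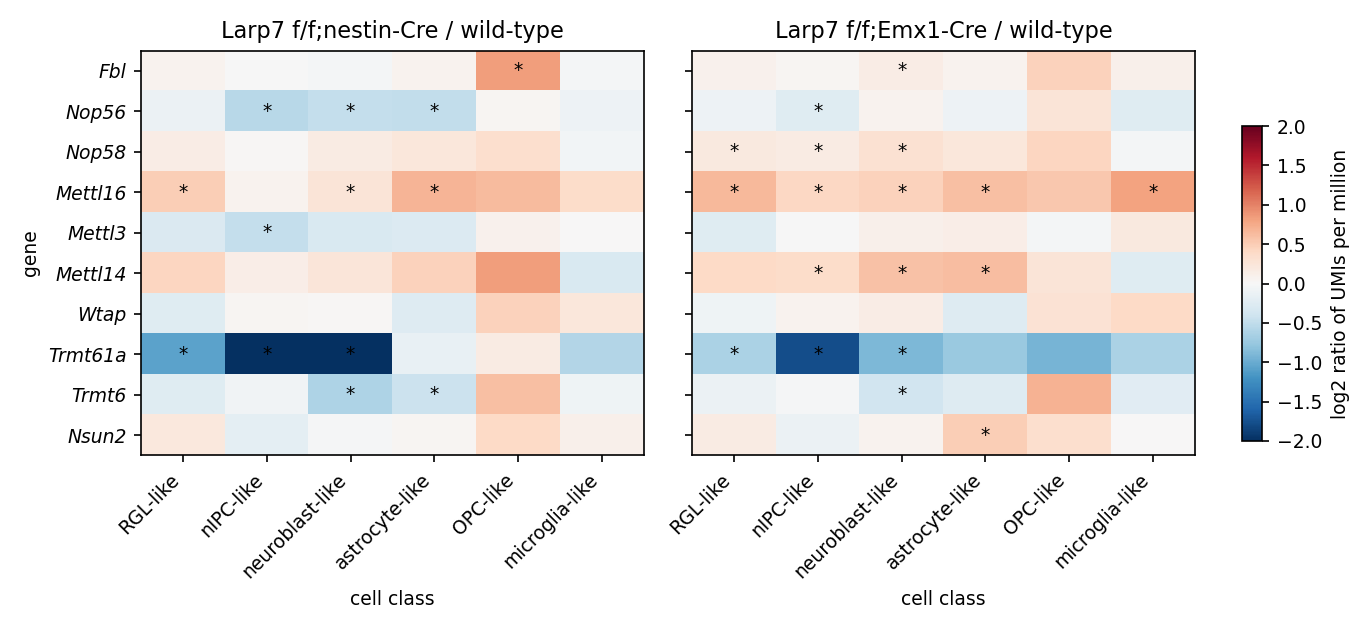
Ratio of each mutant library to wild-type on the log2 scale for the 10 genes (rows) in 6 cell classes (columns), with a star where the 95% counting interval leaves out a ratio of 1 and the colour scale ending at 2 in either direction. The Trmt61a row holds the lowest values, -2.02 and -1.77 in nIPC-like cells, and the Mettl16 row is above 0 in all 12 fields.

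Counted by size, as genes with at least 100 UMIs over the 2 libraries compared and at least 1.5-fold apart, few members passed. In nIPC-like cells of nestin-Cre 9 of the 10 members had enough UMIs and none passed, against 10.1% of 8598 genes higher and 5.54% lower. Trmt61a had 98 UMIs there and so was not counted, and Nop56 lay just inside 1.5-fold. In Emx1-Cre all 10 had enough UMIs and Trmt61a alone passed, as lower, against 6.26% of 8801 genes higher and 2.02% lower, a comparison from which nothing is read since the gene was chosen by it. The median log2 ratio of the 10 members was -0.04 and 0.01, beside 0.04 and 0.07 for all genes.

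In RGL-like cells Mettl16 in Emx1-Cre was the 1 member that passed, as higher, of 9 with enough UMIs in each mutant. The shares over all genes were 7.65% higher and 2.39% lower in nestin-Cre, and 4.42% higher and 1.48% lower in Emx1-Cre. In neuroblast-like cells Trmt6 passed as lower in nestin-Cre, where 11.6% of genes were higher and 9.04% lower, and Mettl14 passed as higher in Emx1-Cre, where 7.02% were higher and 3.27% lower. In astrocyte-like cells Mettl16 passed as higher in both mutants and Mettl14 in Emx1-Cre, beside 5.14% of genes higher and 3.07% lower in nestin-Cre and 3.17% higher and 1.93% lower in Emx1-Cre. In neuroblast-like cells 1 of 9 members with enough UMIs is a share close to the background.

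Other measures moved with genotype within the nIPC-like cells. Transcripts of the G2/M list stood at 120, 94.4 and 104 per 10000 UMIs in the wild-type, nestin-Cre and Emx1-Cre libraries, those of the S phase list at 37.0, 32.1 and 36.2, and those of the neuroblast markers at 74.4, 100 and 87.3. Erythroid markers stood at 2.19, 1.16 and 1.23, and the median depth was 3706.5, 4123.5 and 4154 UMIs. The part of these lists in the values of Trmt61a and Nop56 was not tested. With every cell thinned to 1500 UMIs, the ratios of Trmt61a were 0.273 (0.114 to 0.592) and 0.324 (0.151 to 0.654) in nIPC-like cells, and 0.575 (0.244 to 1.30) and 0.867 (0.422 to 1.79) in RGL-like cells, where both intervals then held 1.

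Of the wider families of RNA modification, few genes were 1.5-fold apart in the same direction in both mutants in nIPC-like cells with at least 100 UMIs. Ythdc2, a helicase that reads m6A, was at 23.5, 41.0 and 38.9 CPM, with ratios of 1.75 (1.39 to 2.21) and 1.65 (1.32 to 2.09). Bcdin3d, which methylates the 5′ phosphate of a histidine tRNA, was at 14.9, 8.38 and 8.43 CPM, with ratios of 0.563 (0.381 to 0.825) and 0.566 (0.390 to 0.817). Trmt61a was the third. Of the 18 and 20 tRNA methyltransferases with enough UMIs, 2 and 1 were at least 1.5-fold lower and 1 and 0 higher, with median log2 ratios of -0.14 and -0.03. Trmt61a belongs to this family and passed as lower in Emx1-Cre, so nothing is read from the lower share there. In nestin-Cre it had too few UMIs to be counted. Over all genes in the same cells 5.54% and 2.02% were lower, and 10.1% and 6.26% were higher. Of the 12 m6A writers none passed in either mutant, with medians of 0.11 and 0.32, and of the 9 and 10 genes of the box C/D particle and its assembly 0 and 1 passed, with medians of -0.11 and 0.06. Of the G2/M list, 17 and 4 of 52 were at least 1.5-fold lower, among them Cdk1, Ube2c, Birc5 and Ccnb2.

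The neurospheres allowed a test with replicates, by edgeR's quasi-likelihood test with Benjamini-Hochberg adjustment over 17753 genes. Larp7 was at 42.8 and 35.0 CPM in the wild-type libraries and at 4.17, 6.35 and 4.39 CPM in the KO libraries, and fell by 2.97 on the log2 scale (SE 0.21, adjusted p = 0.0198). These are TMM-scaled CPM of whole libraries, in which less RNA per cell and fewer cells of a type cannot be told apart. None of the 10 members passed an adjusted p of 0.05, where 0.0169% of all genes (3) were higher and 0.0169% (3) lower, and 3846 genes and 3 members had an unadjusted p under 0.05. In counts simulated for this comparison over 17251 genes, 64 of 100 genes raised 2-fold and 53 of 100 lowered 2-fold were found. All members differed by less than 2-fold, and changes of that size were not simulated.

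Trmt61a was at 18.5 and 15.1 CPM in the wild-type libraries and at 11.1, 11.5 and 13.6 CPM in the KO libraries, which lay below both wild-type values. The difference was -0.48 on the log2 scale (SE 0.15, 95% interval -0.83 to -0.13, unadjusted p = 0.0146, adjusted p = 0.151 by edgeR). In size it was smaller than the log2 ratios in nIPC-like cells, -2.02 in nestin-Cre and -1.77 in Emx1-Cre by the titles. Trmt61a was chosen for its low level in such cells, and the difference between those assays was not tested. Trmt6 was at 44.5 and 43.1 CPM against 38.4, 41.2 and 39.0 CPM (log2 difference -0.15, interval -0.35 to 0.05, adjusted p = 0.349 by edgeR). Its groups did not overlap either, which held for 21.3% of all genes with KO below and 21.3% with KO above.

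Mettl16 was at 42.8 and 38.8 CPM in wild-type and at 49.9, 51.8 and 54.0 CPM in KO libraries, with all KO values above. The difference was 0.35 (SE 0.09, interval 0.14 to 0.56, unadjusted p = 0.00642, adjusted p = 0.122 by edgeR). Mettl14 was at 49.9 and 47.3 CPM against 53.3, 50.8 and 54.4 CPM (0.12, interval -0.07 to 0.31, adjusted p = 0.413 by edgeR). Mettl3 was at 44.9 and 47.6 CPM against 41.7, 43.1 and 42.9 CPM (-0.12, interval -0.31 to 0.07), and Wtap at 84.6 and 79.9 CPM against 92.3, 93.7 and 87.9 CPM (0.15, interval -0.005 to 0.31). Both intervals held 0.

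Of the box C/D proteins, Nop58 was at 95.6 and 80.5 CPM in wild-type and at 113, 108 and 108 CPM in KO libraries (log2 difference 0.32, SE 0.08, unadjusted p = 0.0085, adjusted p = 0.129 by edgeR). Fbl was at 98.0 and 77.1 CPM against 104, 104 and 103 CPM (0.25, interval -0.002 to 0.49, adjusted p = 0.233 by edgeR). Nop56 was at 156 and 124 CPM against 159, 153 and 142 CPM, groups that overlapped (0.11, interval -0.14 to 0.36, adjusted p = 0.58 by edgeR). The lower Nop56 level of nIPC-like cells was not seen here. Nsun2 was at 114 and 104 CPM against 116, 117 and 115 CPM (0.10, interval -0.05 to 0.24).

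**Figure D5:**
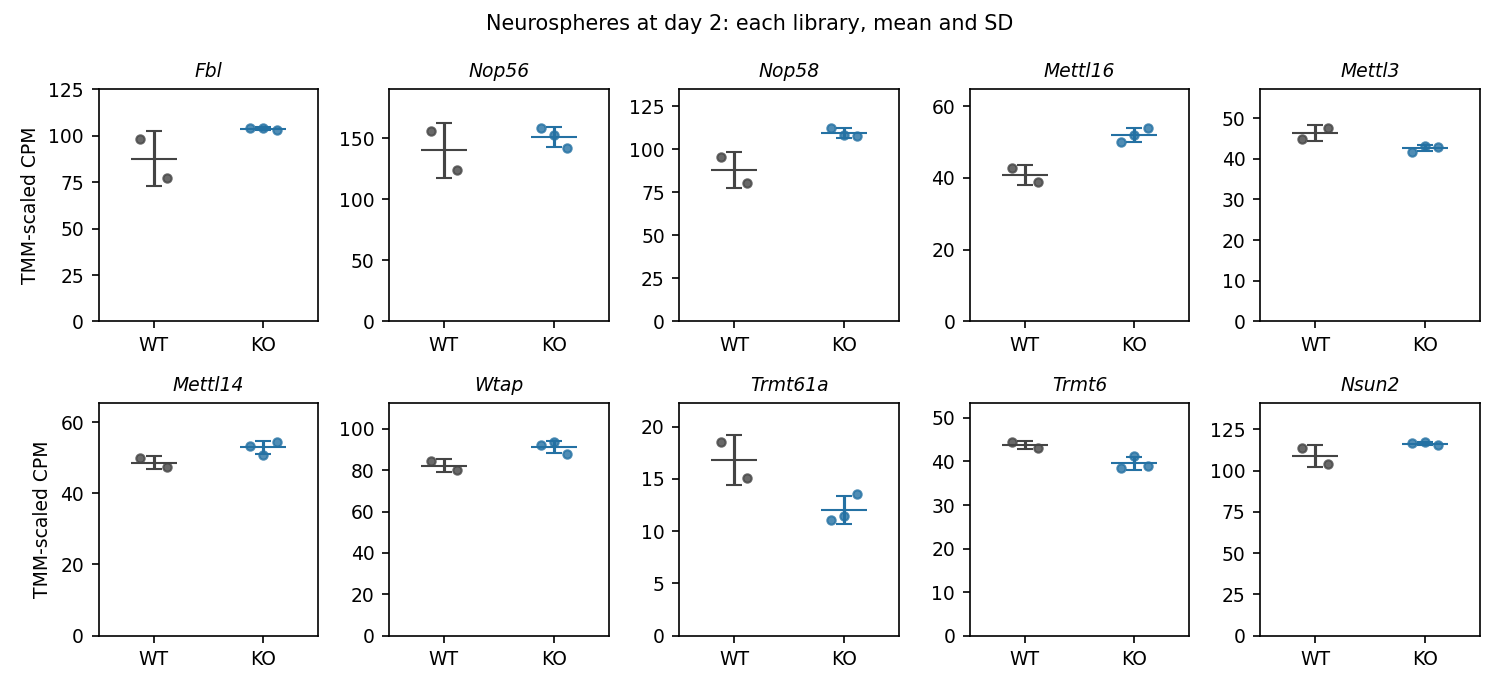
The 10 genes in each neurosphere library as TMM-scaled CPM, with points for the libraries (2 WT, 3 KO), a horizontal line for the mean and a bar for the SD. Trmt61a, Trmt6 and Mettl3 lie below both wild-type values in all 3 KO libraries, Nop56 overlaps, and the other 6 genes lie above, beside 21.3% of all genes in either direction.

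The 2 wild-type libraries differed from each other, and 2 libraries cannot show which of them is atypical. Transcripts of the G2/M list made up 71.5 and 43.9 per 10000 counts in the wild-type libraries and 84.6 to 88.0 in the KO libraries, those of the S phase list 32.1 and 19.2 against 37.1 to 39.5, and astrocyte markers 22.4 and 34.9 against 13.8 to 15.8. In the second wild-type library Fbl, Nop56 and Nop58 were at their lowest. Each fit without a wild-type library leaves an arm of 1 library, so that the KO libraries alone supply the spread. Without the first wild-type library, which leaves the one that stood apart, 5.61% of 18707 genes were called higher and 4.57% lower, and Fbl (0.43, adjusted p = 0.0195 by edgeR), Nop58 (0.44, adjusted p = 0.0199) and Mettl16 (0.42, adjusted p = 0.0499) were called higher, while Trmt61a was at -0.33 (adjusted p = 0.245). Without the second, Fbl was at 0.08, Nop58 at 0.20, Mettl16 at 0.28 and Trmt61a at -0.62. DESeq2 called 4.57% of 17753 genes higher and 5.49% lower, among them Mettl16 (adjusted p = 0.00804 by DESeq2) and Nop58 (adjusted p = 0.0282) as higher and Trmt61a (adjusted p = 0.0476) as lower. By marker content the libraries carried OPC markers at 73.4 to 88.2 per 10000 counts and nIPC markers at 1.78 to 2.55.

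Per kilobase of the union of annotated exons, Fbl was the most abundant member in wild-type neurospheres at 60.2 CPM per kilobase. Nop56 followed at 53.8 and Nop58 at 41.2, and Trmt61a (6.91) and Mettl16 (3.62) were the least. The place of Mettl16 rests on its length of 11276 bp over 7 transcripts, against 2433 bp for Trmt61a. Without scaling by length Mettl16 was at 40.8 CPM and Trmt61a at 16.8 CPM. The top of the order also changed then, with Nop56 at 140 CPM, Nsun2 at 109 CPM, Nop58 at 88.0 CPM and Fbl at 87.6 CPM. Per kilobase Trmt61a was also at a lower level than its partner Trmt6, at 14.0 CPM per kilobase.

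No gene of the wider families passed the edgeR test in neurospheres either, where 18 of 88 had an unadjusted p under 0.05, close to the share of all genes (3846 of 17753). DESeq2 called 4 of them higher and 2 lower, beside 4.57% and 5.49% of all genes. The families include members, so the calls of Nop58, Mettl16 and Trmt61a given above are counted here again. The median log2 difference was 0.23 for the 11 genes of the box C/D particle and its assembly, 0.11 for the 13 m6A writers, 0.10 for 10 m6A erasers and readers, -0.02 for the 28 tRNA methyltransferases, 0.04 for the 12 rRNA base and mitochondrial rRNA methyltransferases, 0.05 for the 8 cap and small RNA methyltransferases and 0.22 for the 6 genes of H/ACA pseudouridylation, beside 0.01 for all genes. Values below 0 numbered 15 of the 28 tRNA methyltransferases and 2 of the 11 box C/D genes. The S phase and G2/M lists had medians of 0.54 and 0.69, with none of their 42 and 52 genes below 0. No gene of them was called by edgeR, 25 and 38 had an unadjusted p under 0.05, and DESeq2 called 43 higher.

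Across 25 units of cell class and library the Pearson correlation of log2(CPM + 1) was 0.78 between Nop56 and Nop58, 0.75 between Fbl and Nop58 and 0.49 between Fbl and Nop56. Pairs across the groups reached similar values, with 0.63 for Fbl and Nsun2, 0.63 for Nop58 and Mettl16, and 0.62 for Trmt6 with either Nop56 or Nop58. For Trmt61a the correlation was 0.22 with Trmt6, its partner, and between -0.06 and 0.12 with the box C/D genes. Of 11452 genes with at least 300 UMIs, those with the pattern most like Trmt61a were Miip, Rab24, Gpaa1, Wdr83 and Cebpzos (0.66 to 0.69), and those most like Fbl were D930015E06Rik, Fam60a, Txnrd1, Rcc2 and D8Ertd82e (0.87 to 0.90). These are descriptions over units that share libraries and depth. Trmt61a had few UMIs in some units, such as wild-type Cajal-Retzius-like (1) and endothelial-like cells (6), so counting error limits its correlations.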

How the data were processed

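The deposited single-cell files hold UMI counts by gene and barcode (10x Genomics 3′ libraries, Cell Ranger, 4.0.0 per the file headers), not normalized. The deposited neurosphere table holds gene counts that the authors made by aligning reads to a transcriptome (strand: not given in the sources used here). Of 10 columns 5 were used, and 5 match no label. ATAC-seq and CUT&Tag were not analysed here.

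Cells with over 500 genes and under 15% mitochondrial UMIs were log-normalized to 10000 UMIs, 2000 variable genes (without members, listed and cell cycle genes) were scaled within libraries, and 30 components, 15 neighbours and Leiden resolution 1 gave 25 clusters (scanpy 1.11.5). Clusters were named "-like" from at least 3 markers raised 1.5-fold in at least 10% of cells, limits set with the data at hand. Doublets were kept, and leaving out the 6% of cells with the highest Scrublet scores was an alternative. UMIs were summed per class and library, as cells are not replicates. Entrez identifiers were matched to RefSeq (39373 of 40814). Counts were tested with edgeR 4.0.16 (TMM, filterByExpr, R 4.3.3), with DESeq2 1.42.0 as an alternative, and the class ratios and the edgeR step were tested on simulated data. Other alternatives were the cell filter, clustering, depth thinning, size factors, count filter, replicate block and each neurosphere library left out. Nothing in the labels says that neurosphere libraries of a group came from separate animals, so p-values measure the spread between these libraries, which may be technical. They differed by more than sampling noise, with chi-square over its degrees of freedom between 20.1 and 66.1.

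The members, lists and tests were chosen with earlier results of these data known. Named besides the members were listed genes called in neurospheres (at most 3 per list), those at least 1.5-fold in the same direction in both mutants with 100 UMIs over the 3 libraries in nIPC-like cells, and the 5 genes most like Trmt61a and Fbl.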

Additional observations from a re-analysis of the deposited data

How the results depend on the processing

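The Trmt61a ratios in nIPC-like cells stayed below 1 in all 8 alternatives, between 0.240 and 0.350 for Larp7 f/f;nestin-Cre and between 0.165 (Leiden resolution 2) and 0.439 for Larp7 f/f;Emx1-Cre. In neuroblast-like cells its ratios ran from 0.0979 to 0.507 and from 0.414 to 1.47, below 1 in 7 and 5 of 7 alternatives. Of the other member ratios under these alternatives 398 stayed within the counting interval, 38 moved, and Trmt6 in neuroblast-like cells of Larp7 f/f;nestin-Cre reversed to 3.46 with over 200 genes per cell and 1.31 at Leiden resolution 2, where that class held 81 and 135 wild-type cells (1.29 and 1.2 for Emx1-Cre). Without scaling within libraries no neuroblast-like class was found. In neurospheres, members called higher and lower were 2 and 1 by DESeq2 and 0 to 3 and 0 with each library left out in turn, while all genes called higher numbered 811 and lower 974 by DESeq2, 1 higher without a filter, and 0 to 1050 and 0 to 855 with a library left out, the highest without the first wild-type library. Listed RNA modification genes were 4 higher and 2 lower by DESeq2 and 0 to 9 higher with a library left out, and cell cycle genes 43 higher and 0 to 86. The causes were not tested. With the replicate number as a block 0 genes were called in either direction and Trmt61a was at -0.57 (adjusted p = 0.344 by edgeR), but the numbers share only a name, as deviations of same-numbered libraries correlated at -0.005 and 0.09. For members of few UMIs, depth sets the limit: Trmt61a had between 5 and 17 UMIs in each library of the OPC-like and microglia-like cells.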
